A study of Mus musculus with 3 samples.

Results

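The 10 genes described here are the transcription factor genes Lef1, Tcf7, Satb1, Bach2, Foxo1, Foxo3 and Foxp1, the IL-7 receptor gene Il7r, and Tsc22d3 and Dapl1. They were chosen by name as genes of the naive T cell state, out of 19751 genes that the array probes could be matched to. Earlier results of these data were known by then, so the counts below describe these genes and are not a test. All 10 were found, with 14 probes between them, and each was above background in both channels of all 3 arrays. RNA was measured on 2-colour Agilent arrays, on which each spot compares a culture (Cy5) with naive cells (Cy3). Th2, Th9 and iTreg (induced regulatory T) cultures had 1 array each, all on 1 slide and with the dyes in the same orientation.

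The naive cells were CD4 T cells of the spleen of C57BL/6 mice aged 6 to 8 weeks, isolated with magnetic beads. All 3 cultures were made from such cells over 3 days with antibodies to CD3e and CD28 at 10 µg/ml each. To this the Th2 culture added IL-2 at 1 ng/ml, IL-4 at 5 ng/ml and anti-IFN-gamma at 2 µg/ml. Th9 cells received IL-2 at 0.2 ng/ml, IL-4 at 1 ng/ml, TGF-beta 1 at 2 ng/ml and anti-IFN-gamma at 5 µg/ml. For iTreg cells the additions were IL-2 at 0.4 ng/ml, TGF-beta 1 at 5 ng/ml, and anti-IFN-gamma and anti-IL-4 at 5 µg/ml each. Activated cells without polarising cytokines were not among the groups, so activation and medium cannot be told apart in a ratio against naive. The cultures differed in several additions at once, so these cannot be told apart in a difference between cultures. In such bulk RNA, fewer cells of a type and less RNA per cell cannot be told apart either.

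Naive T cells are quiescent, recirculate through lymphoid tissue and depend on IL-7 for survival. FOXO factors, which the kinases AKT and SGK1 keep out of the nucleus once T cells are stimulated, are known to drive transcription of Il7r and of genes of quiescence and homing such as Klf2. TCF1, the product of Tcf7, and LEF1 are HMG-box factors of T cell identity, SATB1 organises chromatin, BACH2 is a repressor that restrains effector programmes, and FOXP1 maintains quiescence.

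Start windows of 3 of these genes are shown because they hold letters that forkhead or ETS factors are known to recognise, the families of FOXO and FOXP proteins and of the Il7r regulators GABP and ETS1. Each runs from 250 bases before to 50 after a RefSeq start (build GRCm38.p6), 5′ to 3′ on the gene's strand. Capitals mark GTAAACA for forkhead factors in the first pair of windows, and in that of Il7r ACTTCCT, the reverse of the ETS motif AGGAAGT.
Dapl1, chr2:59484403-59484702, plus strand: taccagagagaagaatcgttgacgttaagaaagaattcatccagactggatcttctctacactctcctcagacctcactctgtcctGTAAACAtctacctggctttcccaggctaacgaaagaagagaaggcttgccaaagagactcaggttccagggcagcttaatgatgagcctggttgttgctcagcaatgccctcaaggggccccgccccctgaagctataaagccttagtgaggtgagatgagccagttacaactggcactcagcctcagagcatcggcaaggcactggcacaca
Tcf7, chr11:52282546-52282845, minus strand: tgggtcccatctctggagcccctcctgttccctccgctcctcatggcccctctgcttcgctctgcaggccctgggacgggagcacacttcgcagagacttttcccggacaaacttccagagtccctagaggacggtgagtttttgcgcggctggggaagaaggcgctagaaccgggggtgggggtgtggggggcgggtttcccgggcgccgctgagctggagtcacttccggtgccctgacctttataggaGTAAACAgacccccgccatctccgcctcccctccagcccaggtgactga
Il7r, chr15:9529827-9530126, minus strand: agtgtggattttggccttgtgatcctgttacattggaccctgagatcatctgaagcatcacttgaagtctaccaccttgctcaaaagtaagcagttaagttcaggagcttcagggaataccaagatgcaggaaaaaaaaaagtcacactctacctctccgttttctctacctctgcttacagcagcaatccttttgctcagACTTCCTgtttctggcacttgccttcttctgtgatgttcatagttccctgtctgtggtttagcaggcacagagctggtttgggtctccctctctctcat

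On both strands, the forkhead motif was found in 2 of the 22 start windows of the 10 genes, those of Dapl1 and of 1 Tcf7 start, and in 3.65% of all 32851 windows of this length. The ETS motif lay in 4 of the 22 windows (Il7r, 1 start of Lef1 and 2 of Satb1) and in 9.35% of all windows. A TCF and LEF motif, ATCAAAG, was in 0 of the 22 and in 3.73% of all. The ETS match of Il7r began 49 bases before the start, the forkhead match of Dapl1 164 bases before it, and that of Tcf7 at base 2 of the transcript. These motifs do not overlap, and a match describes letters, not binding. They were chosen after the windows had been read, and some windows of 1 gene overlap, so the shares are not a test.

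Of the 10 genes, 9 were below their naive level in Th2 and Th9 cells and 8 in iTreg cells. At least 2-fold lower (a log2 ratio of -1 or less) were 7 of the 10 genes in Th2 cells, where 14.5% of 10946 measured genes were. In Th9 cells 8 of the 10 were, against a background of 15.6% of 10783 genes, and in iTreg cells 5 of the 10, against 8.15% of 11119. The genes 2-fold lower or more on every array were Lef1, Il7r, Tsc22d3 and Dapl1 (4 of 10), against a background of 6.02% of 10349 genes. None of the 10 was at least 2-fold higher in Th2 (background 14.8%), Th9 (15.5%) or iTreg cells (10.2%), nor on all 3 arrays (7.29%).

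The median log2 ratio of the 10 genes was -1.93 in Th2, -2.27 in Th9 and -1.06 in iTreg cells, beside -0.02, -0.01 and -0.02 over all measured genes. Ratios of all measured genes spread less in iTreg cells, with an SD of 0.882, beside 1.15 in Th2 and 1.19 in Th9 cells. These values rest on loess, which sets the typical ratio at each brightness to 0. With median centring in place of it, the medians of all genes were 0.33, 0.16 and -0.18, and those of the 10 genes relative to them were -1.44, -1.69 and -0.82. The split of all called genes also moved, to 810 lower and 2782 higher in Th2 cells (1591 and 1620 by loess), 1232 and 2313 in Th9 cells (1684 and 1673 by loess) and 1330 and 910 in iTreg cells (906 and 1137 by loess). Under it 6, 6 and 5 of the 10 genes were still at least 2-fold lower.

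**Figure D1:**
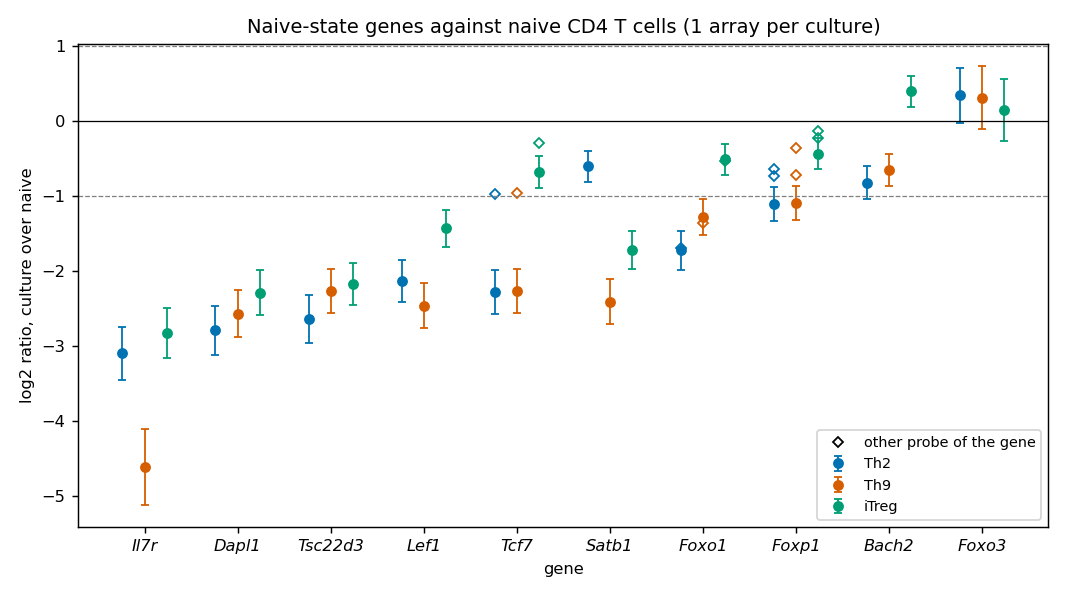
Log2 ratio of each gene, culture over naive, for Th2, Th9 and iTreg cells. Filled points are the probe that stands for the gene with the scanner software's error of the spot (n = 1 array), open diamonds are other probes of the gene, and dashed lines mark 2-fold. Il7r in Th9 cells lies lowest at -4.61, while Bach2 in iTreg cells and all 3 Foxo3 points lie above 0.

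The arrays held 43020 gene spots, with 53.03% to 54.12% of naive and 48.87% to 51% of culture signals well above background and 0 saturated. A gene's level over the 3 naive channels had a median SD of 0.0468 (log2, n = 3 channels) over 10349 genes and 0.0409 over these 10, against 0.651 for these 10 over the 3 cultures. Whether 1 RNA extract served all naive channels is not given in the labels, so this SD may be technical. Values given below with ± carry the scanner software's error for 1 spot, which covers error within 1 array and no variation between cultures. With 1 array per culture no test across genes is possible.

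Il4, Il9 and Foxp3 followed the labels, while Gata3, a factor gene of Th2 cells, set the cultures apart less. Gata3 was at 1.4 ± 0.24 in Th2, 1.01 ± 0.22 in Th9 and 0.53 ± 0.21 in iTreg cells. Il4 was at log2 5.08 ± 0.61 in Th2 and 1.04 ± 0.27 in Th9 cells and not measured in iTreg cells, and Il9 was measured on the Th9 array alone (6.52 ± 0.81). The regulatory T cell factor Foxp3 had ratios of -0.68 for Th2, 1.28 for Th9 and 3.49 for iTreg cells. By the brightest probe, all 4 markers of activation were at least 2-fold higher in each culture (Mki67, a proliferation gene, at 2.92, 3.30 and 1.71). Another measured probe of Cd44, 1 of the 4, gave -0.14, 0.56 and 1.30. All 6 T cell markers were above background everywhere, but Cd3e, a T cell receptor subunit gene, was itself at -1.94, -1.91 and -0.89. By loess the median ratio of the 6 was -0.90 in Th2, -1.38 in Th9 and -0.31 in iTreg cells. With median centring Cd3d (0.39), Cd4 (0.35), Cd5 (1.32) and Cd28 (0.23) were above naive in Th2 cells. Cd3e (-0.66) and Cd3g (-0.32) stayed below there. In Th9 cells Cd3d (0.14) and Cd4 (0.26) were above naive and the others below. Before the dyes were scaled, the 6 signals summed to 232396, 172153 and 255714 in the cultures, against 177310, 188084 and 176428 in naive cells. The B cell markers Cd79a, Ms4a1 and Pax5 and the CD8 T cell gene Cd8a were at background in all channels, while the B cell marker Cd79b was measured on all 3 arrays and higher, at 2.08, 2.03 and 1.83.

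Markers of NK cells moved in the same direction as the naive-state genes. The sums of marker signals that follow are over background and not scaled between the dyes. Of 4 NK cell markers, 2, 2 and 1 were above background in Th2, Th9 and iTreg cells, against 4 in every naive channel. Their summed signal was 14508, 4513 and 716 in the cultures, against 49460, 51424 and 53606 in the naive channels of the same arrays. The 7 myeloid markers summed to 11624, 11382 and 20996 in the cultures, against 19116, 19161 and 20262 in naive cells, with 4, 4 and 5 above background in the cultures and 6, 7 and 6 in naive cells. The normalised ratios of those measured had medians of -1.86, -2.01 and -2.05, with 3 of 4, 3 of 4 and 3 of 5 at least 2-fold lower. The 3 dendritic cell markers on the array summed to 42072, 39563 and 50545 in the cultures, against 34087, 34795 and 27948 in naive cells, with 2, 1 and 2 above background in the cultures and all 3 in naive cells. Their normalised ratios ran the other way, with medians of -1.42, -1.07 and -0.91 over those measured, and Siglech changed sign in Th2 and Th9 cells with median centring (0.36 and 0.01). Of 2 red blood cell markers on the array 1 was measured, with ratios of -2.54, -2.81 and -2.72, and the CD8 T cell gene Cd8b1 was at 0.06, -0.80 and -0.30. The part of such cells in the ratios below was not tested.

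Il7r, which encodes the alpha chain of the IL-7 receptor, had the lowest ratio of the 10 genes in every culture. Its spot gave signals of 1975 in Th2, 643.5 in Th9 and 2103 in iTreg cells, against 11249, 11696 and 11546 in the naive channels of those arrays. The cultures lay far below the naive channels, which hardly differed, and Th9 was the lowest. After normalisation the log2 ratios of Il7r were -3.10 ± 0.35 (Th2), -4.61 ± 0.51 (Th9) and -2.83 ± 0.33 (iTreg), which is 8.56-fold, 24.4-fold and 7.09-fold lower than naive, and -2.47, -4.34 and -2.95 with median centring. Of all measured genes, 0.566%, 0.102% and 0.333% had a lower ratio. Its level (log2 intensity scaled between arrays) was 10.63, 9.11 and 10.94 in the cultures and 13.74 ± 0.02 in naive cells (SD, n = 3 channels).

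A list of IL-7 receptor signalling genes, related receptor chains and regulators of Il7r did not move one way. Of 18 of its 20 genes measured on every array, 3 were 2-fold or more lower on each and 6 higher, beside 6.02% and 7.29% of all genes. The lower ones were Jak1 (-2.44 in Th2, -2.26 in Th9 and -1.29 in iTreg cells), a kinase that signals from the receptor, the shared gamma chain Il2rg (-1.20, -1.82 and -1.09) and the survival gene Mcl1 (-1.18, -1.30 and -1.07). With median centring Jak1 alone of these stayed at least 2-fold lower on all 3 arrays, and Mcl1 changed sign in Th2 cells (0.04). By its other probe Mcl1 was at -0.75, -1.14 and -0.66. Ets1, an ETS transcription factor gene, was at -1.92, -1.72 and -0.85. By its other probe it was at -1.97, -1.75 and -1.18, past 2-fold in each culture.

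The higher ones included the signal carriers Jak3 (1.55, 1.03 and 1.50) and Stat5a (2.02, 2.03 and 1.80), and Cish (3.31, 3.27 and 1.81), an inhibitor that STAT5 induces. Gfi1, a repressor known to act on Il7r, stood at 2.30, 1.90 and 2.08. The IL-2 receptor chains Il2ra (2.33, 2.57 and 3.91) and Il2rb (1.72, 1.10 and 1.31) were higher as well. The list's median was 0.22 in Th2, 0.21 in Th9 and -0.01 in iTreg cells, and 1.0, 0.73 and -0.28 with median centring. The ligand genes Il7 and Tslp were at background in both channels of the Th2 array.

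The HMG-box factors Lef1 and Tcf7 had similar ratios in Th2 and Th9 cells and lay closer to naive in iTreg cells, though for Lef1 not with median centring. Lef1 gave signals of 7610, 6869 and 13154 in Th2, Th9 and iTreg cells, against 17924, 20593 and 22433 in the naive channels. All 3 cultures were below every naive channel, with iTreg the highest of them. Its log2 ratios were -2.13 ± 0.28, -2.46 ± 0.30 and -1.43 ± 0.24, and -1.20, -1.77 and -1.28 with median centring. Lef1's naive level varied more than most, with an SD of 0.174 over the 3 channels, above the 95th percentile of all genes (0.151).

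Tcf7 gave 2990 in Th2, 3164 in Th9 and 7927 in iTreg cells, against 9446, 9904 and 9048 in naive cells. The iTreg signal came near the naive ones, and the other cultures stood apart from both. The log2 ratios were -2.28 ± 0.30, -2.27 ± 0.29 and -0.68 ± 0.21, and -1.62, -1.83 and -0.70 with median centring. A second, dimmer probe of Tcf7 gave -0.97, -0.96 and -0.30, so the order of the cultures was shared, but the size was not. By that probe Tcf7 was under 2-fold lower in each culture by loess. By the scanner software's processed signals the same probe was just past 2-fold in Th2 (-1.15) and Th9 cells (-1.04).

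By loess, the Wnt pathway partners measured on every array were near the background. Of 13 genes of the TCF and LEF family and its partners measured on every array, 0 were 2-fold or more lower on each and 1 was higher, Ctnnbip1, an inhibitor of beta-catenin (1.08, 1.13 and 1.16, and 0.99 in iTreg cells with median centring), beside 6.02% and 7.29% of all genes. In single cultures 3 of 15 in Th2, 3 of 15 in Th9 and 1 of 14 in iTreg cells were lower. The shares of all measured genes were 14.5%, 15.6% and 8.15%. The co-repressor genes Tle3 (-1.19, -1.40 and -0.68) and Tle4 (-1.16, -1.07 and -0.82) had the lowest mean ratios. With median centring Tle4 was at least 2-fold lower on all 3 arrays (-1.05, -1.09 and -1.0). Axin2, at background in iTreg cells, was at -1.82 in Th2, -1.33 in Th9 and -1.51 or less in iTreg cells. Tle1 was at -0.21, 0.62 and 0.82, with 0.64, 0.34 and -0.07 by another probe, and its sign in Th2 cells turned with median centring (0.05). The list's median was -0.62 in Th2, -0.66 in Th9 and -0.26 in iTreg cells, and -0.08, -0.07 and -0.35 with median centring.

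**Figure D2:**
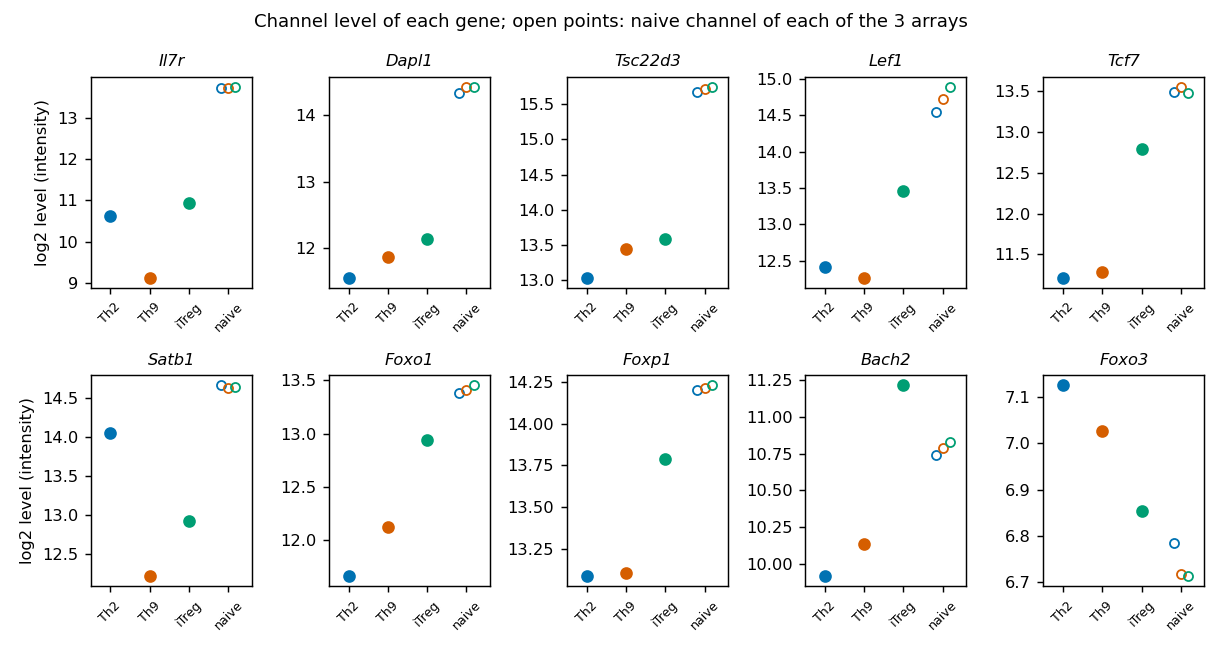
Level of each gene (log2 intensity, scaled between arrays; each panel has its own axis) in Th2, Th9 and iTreg cells, with the naive channels of the 3 arrays as open points at the right. In 8 panels every culture lies below all naive points, in the Bach2 panel iTreg lies above them, and in the Foxo3 panel all cultures do.

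Every culture was below the lowest naive channel for 8 of the 10 genes and for 35.9% of 10349 genes. Foxo3 alone had every culture above the highest naive channel, as did 32.1% of genes. With naive channels so alike, such a separation is common on these arrays and says little of size.

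Foxo1, the main FOXO factor of naive T cells, was lower in Th2 and Th9 cells and nearer to naive in iTreg cells. Its signals were 4139.5, 5908 and 8853 in Th2, Th9 and iTreg cells, against 8640.5, 8822 and 8930 in naive cells. Foxo1 had log2 ratios of -1.72 ± 0.26, -1.28 ± 0.23 and -0.52 ± 0.21, in the order of the culture signals. With median centring they were -1.02, -0.77 and -0.53, so the call of 2-fold in Th9 cells was lost. Its other probe gave -1.70, -1.36 and -0.54, within the error of the first.

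Foxo3, a second FOXO gene, could hardly be measured. Its spot gave 140.5, 113 and 104 in Th2, Th9 and iTreg cells, against 88, 83 and 80 in naive cells, close to the median spot of the arrays. The log2 ratios of 0.34 ± 0.36, 0.31 ± 0.42 and 0.14 ± 0.42 did not exceed their errors. By the scanner software's processed signals they were 1.31, 0.76 and 0.39, and by an offset of 16 they were 0.47, 0.45 and 0.20. The cause of the gap to the processed signals was not tested. The relatives Foxo4, measured in iTreg cells only, and Foxo6, at background in both channels of the Th2 array, give no further comparison.

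Upstream of FOXO, 18 genes of the PI3K, AKT and SGK1 list were measured on all 3 arrays, with 2 at least 2-fold lower on each and 0 higher. The shares of all genes were 6.02% and 7.29%. The 2 lower ones were Pik3r5 (-1.89, -1.70 and -1.66), a regulatory subunit of PI3K gamma, and Ywhab (-1.63, -1.60 and -1.46), a 14-3-3 protein gene, of the family that holds phosphorylated FOXO in the cytoplasm. Sgk1, a kinase that phosphorylates FOXO, differed between cultures, at -3.32 in Th2, 0.04 in Th9 and -2.68 in iTreg cells. The highest mean ratio was that of Sgk3 (1.15, 0.97 and 0.83). The list's median was -0.56, -0.34 and -0.38, and 0.01, -0.16 and -0.46 with median centring.

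Among 20 known FOXO target genes measured on every array, 4 were 2-fold or more lower on each and 2 higher. The shares of all genes were 6.02% and 7.29%. Among the lower ones were Klf2 (-4.91 in Th2, -3.83 in Th9 and -1.27 in iTreg cells), a factor of quiescence, S1pr1 (-3.74, -2.99 and -1.13), the receptor for exit from lymph nodes, and Il6ra (-2.22, -2.02 and -1.10, and -0.99 in iTreg cells with median centring), an IL-6 receptor chain. These 3 genes stood nearest to naive in iTreg cells, where the ratios of all measured genes also spread less. The higher ones were the inhibitory receptor gene Ctla4 (3.28, 4.18 and 3.52) and the cyclin gene Ccng2 (1.81, 2.02 and 1.55). The list's median was -0.61, -0.34 and 0.36, and -0.01, -0.16 and 0.30 with median centring.

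Foxp1, a forkhead factor that keeps T cells quiescent, had a small ratio that its probes did not share in size. Its brightest probe gave 12247, 12651.5 and 16363 in Th2, Th9 and iTreg cells, against 13783, 14283 and 14283 in naive cells. These unscaled signals overlap, and the ratio rests on the dye normalisation. By loess Foxp1 was at -1.11 ± 0.23, -1.10 ± 0.22 and -0.44 ± 0.21, with -0.74, -0.72 and -0.13 by a second probe and -0.64, -0.36 and -0.23 by the third. With median centring the first probe gave -0.13, -0.37 and -0.32, so Foxp1 was not lower by 2-fold in any culture under that scaling.

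Satb1 was the gene that set Th2 cells apart from both Th9 and iTreg cells. Its signals were 25819 in Th2, 6604 in Th9 and 8859 in iTreg cells, against 18044, 19316 and 19318 in naive cells. Th2 was the one culture with a signal above naive before the dyes were scaled, and Th9 and iTreg were far below. Satb1 had a log2 ratio of -0.61 ± 0.21 in Th2 cells, -2.41 ± 0.30 in Th9 and -1.72 ± 0.25 in iTreg cells. With median centring the Th2 value was 0.55, so its direction against naive is not settled, while Th9 (-1.74) and iTreg (-1.64) stayed over 2-fold lower.

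Bach2 ran the other way, with iTreg as the culture apart. It gave signals of 1087, 1255.5 and 2473 in Th2, Th9 and iTreg cells, against 1541, 1575 and 1575 in naive cells. Only the iTreg signal was above the naive ones. The log2 ratios were -0.82 ± 0.22, -0.65 ± 0.22 and 0.39 ± 0.21, all under 2-fold, and -0.46, -0.51 and 0.15 with median centring. By the scanner software's processed signals Bach2 in Th2 cells was at -1.01, just past 2-fold.

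Among 13 relatives, partners and opposing factors of BACH2 measured on every array, 2 were 2-fold or more lower on each and 2 higher. The shares of all genes were 6.02% and 7.29%. Jun (-2.62, -2.15 and -1.28), an AP-1 factor, and Nfe2l2 (-1.36, -1.41 and -1.59), the oxidative stress factor NRF2, were lower, the second at -0.92 in Th2 cells with median centring. The small MAF partners Mafg (1.20, 1.68 and 1.17) and Maff (2.69, 3.07 and 2.06) were higher, Mafg at 0.92 in iTreg cells with median centring. Prdm1, at background in Th9 cells, was at -1.30 in Th2, -1.29 or less in Th9 and -1.03 in iTreg cells. Batf3, a factor of the AP-1 family, was at 3.69 in Th2, 3.78 in Th9 and 0.33 in iTreg cells. The median of these 13 to 14 measured genes was -0.41, -0.27 and -0.45, and -0.07, -0.18 and -0.73 with median centring.

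Tsc22d3, also called GILZ, is induced by glucocorticoids and by FOXO factors and was lower in every culture. Its signals were 12591, 17459 and 14549 in Th2, Th9 and iTreg cells, against 36240, 37996 and 39215 in naive cells. Each culture lay well below each naive channel. The log2 ratios were -2.64 ± 0.32, -2.27 ± 0.29 and -2.17 ± 0.28. With median centring they were -1.49, -1.31 and -1.95, with iTreg the lowest.

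The glucocorticoid genes were split. Of 9 measured on every array, 3 were 2-fold or more lower on each and 3 higher, beside 6.02% and 7.29% of all genes. Nr3c1, the glucocorticoid receptor gene, was at -1.90, -1.88 and -1.56, but at -0.66, -0.87 and -0.78 by its other probe. The phosphatase gene Dusp1 (-1.62, -1.61 and -1.85) and the chemokine receptor gene Cxcr4 (-1.32, -1.41 and -1.31, and -0.85 in Th2 cells with median centring) were lower as well. Higher were Klf9 (1.37, 1.59 and 1.29) and the metallothionein genes Mt1 (4.37, 4.41 and 4.15) and Mt2 (4.47, 4.74 and 2.81), which metals also induce. The list's median was -0.62, 0.04 and -1.07, and -0.26, 0.42 and -1.27 with median centring.

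Of 4 measured relatives of FOXP1, SATB1 and TSC22D3, 0 were 2-fold or more lower and 0 higher on all 3 arrays. The shares of all genes were 6.02% and 7.29%. Besides Foxp3 the 4 were Foxp4 (0.23, 0.19 and 0.49) and 2 relatives of Tsc22d3. Of these, Tsc22d1 (-0.72, -0.69 and 0.04) and Tsc22d4 (-0.59, -0.70 and -0.26) were under 2-fold from naive, and the sign of Tsc22d1 in iTreg cells and of Tsc22d4 in Th2 cells turned with median centring (-0.21 and 0.09). The median of the 4 was -0.63, -0.25 and 0.26, and 0.15 in Th9 cells with median centring.

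Dapl1, named for its likeness to a death-associated protein, was lower in every culture. Its signals were 3923, 5052 and 5092 in Th2, Th9 and iTreg cells, against 16130, 17333.5 and 17466 in naive cells. The 3 cultures were close to each other. Log2 ratios were -2.79 ± 0.33, -2.57 ± 0.32 and -2.29 ± 0.30, and lay between -2.29 and -1.97 with median centring.

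**Figure D3:**
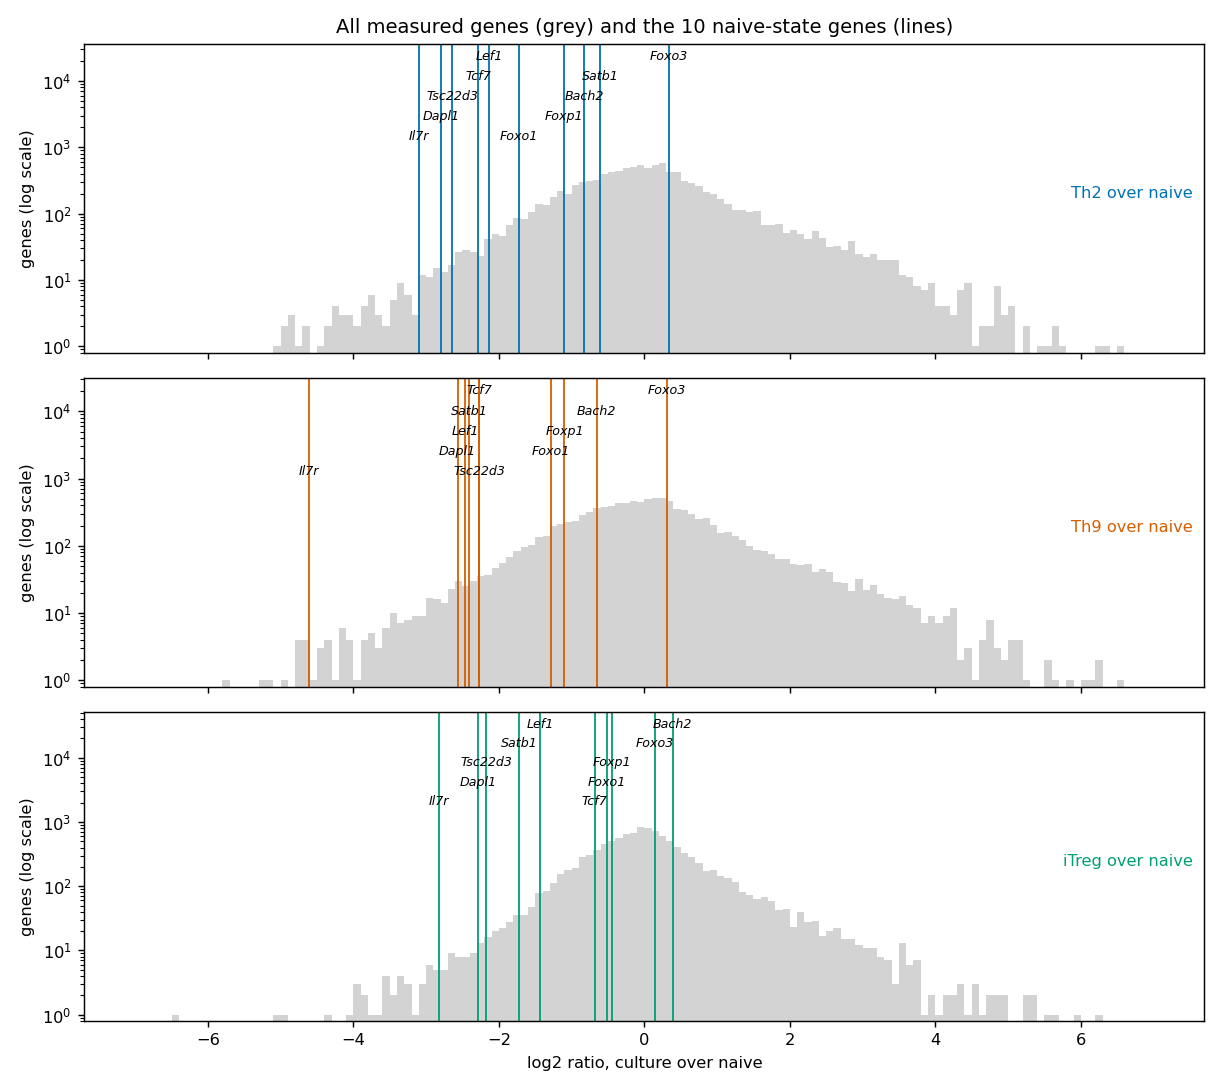
Histogram of log2 ratios of all measured genes (grey, bins of 0.1, counts on a log scale) for Th2, Th9 and iTreg cells over naive, with coloured lines at the 10 genes. In every panel Il7r is the leftmost line, and the lines of Tcf7 and Foxo1 lie nearer to 0 in iTreg cells than in Th2 and Th9 cells.

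Most other genes known for naive T cells were lower too. Of 17 measured on every array, 6 were 2-fold or more lower on each and 0 higher, beside 6.02% and 7.29% of all genes. Foxj1, also on the list, went the other way. It was at background in naive and iTreg cells, and higher by at least log2 2.79 in Th2 and 1.83 in Th9 cells. This list too was chosen with earlier results of these data known. Its medians were -1.92 in Th2, -2.16 in Th9 and -0.74 in iTreg cells (-1.35, -1.64 and -0.87 with median centring). Besides Klf2 and S1pr1 the 6 lower genes included Klf3 (-2.56, -2.47 and -1.47), a repressor related to Klf2, Slfn2 (-2.55, -3.38 and -1.41), which maintains quiescence, and the gut-homing receptor gene Ccr9 (-2.45, -2.61 and -2.04). The exceptions with the highest mean ratios were Ccr7, the receptor for entry into lymph nodes (-0.66, -0.22 and 0.85, but 0.94 in Th2 and 1.14 in Th9 cells with median centring), and Tob1 (-0.65, -0.50 and -0.15), an inhibitor of proliferation.

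**Figure D4:**
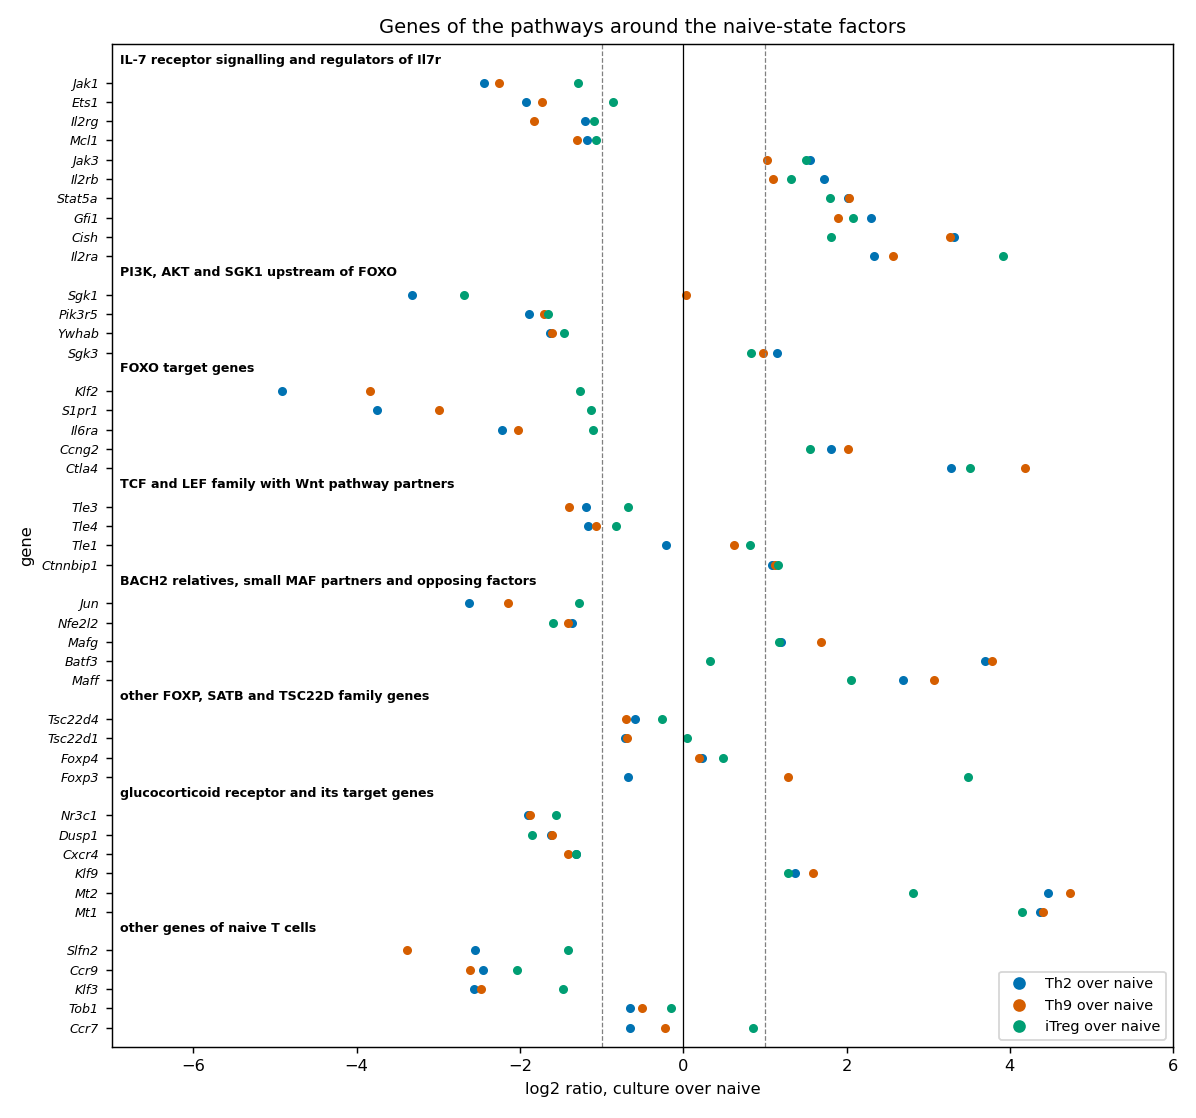
Log2 ratios against naive (Th2, Th9 and iTreg) of the pathway genes named in the text, grouped by list, with dashed lines at 2-fold. Genes that belong to several lists are drawn once, under the first. Klf2 and S1pr1 lie far to the left in Th2 and Th9 cells and nearer to 0 in iTreg cells, and Sgk1 lies at 0.04 in Th9 cells alone.

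Th9 and Th2 cells, which both received IL-4, differed in Satb1 and Il7r. These were the 2 of 10 genes at least 2-fold lower in Th9 than in Th2 cells, where 1.38% of 10459 genes were, and 0 of 10 were higher (background 1.28%). Satb1 was lower in Th9 cells by log2 -1.80 ± 0.36 and Il7r by -1.51 ± 0.62. With median centring the differences were -2.29 and -1.88, and by direct comparison of the culture channels -1.84 and -1.52. The other 8 genes differed by -0.33 (Lef1) to 0.44 (Foxo1).

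Against Th2 cells, iTreg cells had higher Tcf7, Bach2 and Foxo1 and lower Satb1. At least 2-fold higher were 3 of the 10 genes, against 6.87% of 10539 genes, and 1 was lower, against 6.69%. Tcf7 was higher by 1.60 ± 0.37, Bach2 by 1.22 ± 0.31 and Foxo1 by 1.21 ± 0.33. With median centring these were 0.92, 0.61 and 0.50, all under 2-fold. Satb1 was lower in iTreg cells by -1.11 ± 0.33, and by -2.19 with median centring.

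Against Th9 cells, iTreg cells were higher in Il7r, Tcf7, Bach2 and Lef1. These 4 of 10 genes were at least 2-fold higher, against 6.8% of 10481 genes, and 0 were lower (background 6.29%). Il7r was higher by 1.78 ± 0.61, Tcf7 by 1.59 ± 0.36, Bach2 by 1.04 ± 0.30 and Lef1 by 1.03 ± 0.39. With median centring Il7r (1.40) and Tcf7 (1.13) stayed at least 2-fold higher, while Bach2 (0.66) and Lef1 (0.49) did not. The T cell receptor gene Cd3e also differed, by 1.05 from Th2 and by 1.02 from Th9 cells, and with median centring its ratios to naive were -0.66, -0.92 and -0.56 in Th2, Th9 and iTreg cells. Its part in these differences was not tested. By loess, Tsc22d3 and Dapl1 differed by at most 0.50 between any pair of cultures, and with median centring Tsc22d3 was lower in iTreg than in Th9 cells by -0.63.

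**Figure D5:**
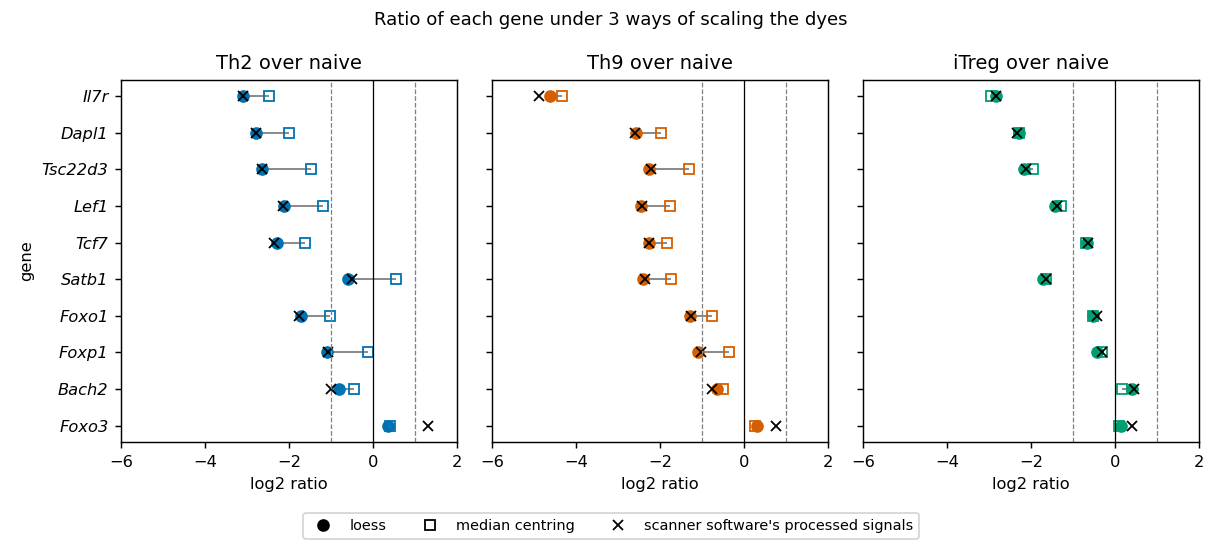
Log2 ratio of each gene over naive in Th2, Th9 and iTreg cells under loess (filled circles), median centring (open squares) and the scanner software's processed signals (crosses), with dashed lines at 2-fold. Median centring moves Satb1 in Th2 cells across 0 (0.55 against -0.61 by loess), and the processed signals move Foxo3 in Th2 cells to 1.31.

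The genes whose ratios over the 3 arrays lay nearest to each of the 10 were found by Euclidean distance among 10339 other genes. For Il7r these were the interferon-induced gene Gbp4 (-2.72 in Th2, -4.65 in Th9 and -2.83 in iTreg cells, distance 0.379), then Lgals3bp and Nmi. For Satb1 they were the caspase gene Casp1 (-0.80, -2.43 and -1.46, distance 0.325), Ifih1, an RNA sensor gene, and Gpr18. Nearest to Lef1 were Zfp276, Snapc5 and Lrrc1, and nearest to Tcf7 were Tdrp, Leng9 and Ppm1b.

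Foxo1 lay nearest to Saraf, Tulp4 and Ugcg, Foxp1 to Utp25, Rusf1 and Arf3, and Bach2 to Rbm45, Fbxo28 and Ppp2r5c. Tsc22d3 had Slc20a1, Ifit3 and Dnaja1 as its neighbours, Dapl1 had Slpi, Peg13 and Slc20a1, and Foxo3 had Rtcb, Cog4 and Psma5. Among the 10 genes themselves the closest pair was Tsc22d3 and Dapl1 (distance 0.352), then Foxo1 and Foxp1 (0.646) and Lef1 and Tcf7 (0.791). Il7r was far from all of them, at 2.13 from Dapl1, the nearest. With only 3 values per gene, many genes lie close to any pattern near 0.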

How the data were processed

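Agilent 2-colour arrays (60-base probes) compared each of 3 cultures (Cy5) with naive CD4 T cells (Cy3), with 1 array per culture, no dye swap and 1 slide. Per the file headers, the deposited scanner files hold median spot and background intensity from version 11.0.1.1 of Agilent Feature Extraction (9.3.2.1 per the submitters' processing notes), processed intensity, a log10 ratio with its error, and an unused p-value. The deposited series values equal the log2 ratio of processed signals plus an offset of 0.0562 on the Th2, 0.0206 on the Th9 and 0.0365 on the iTreg array, within 0.001 for 99.3% of probes on each array. Their column medians were 0.138, 0.259 and 0.283.

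Median signals were background-corrected by normexp (offset 50) and normalised by loess within each array in limma 3.58.1 (R 4.3.3, package data.table in version 1.17.8). Channel levels were then scaled between arrays by average intensity (Aquantile). Control and outlier spots had no weight. Later steps used Python 3.11.15, pandas 2.3.3, numpy 2.4.6 and matplotlib 3.10.9. Probes were matched by accession to GRCm38.p6 symbols (26055 of 39429), and the brightest probe stood for a gene. A gene counted as measured where both channels were well above background. The error of a ratio is the scanner software's log10 error turned to log2, and errors of 2 arrays were combined as the root of summed squares. Calls are by size (2-fold), since 1 array per culture allows no test. The number of arrays limits the precision. The size rule was tested on simulated arrays with few changed spots and an even dye shift. The real arrays need not share these, so that test does not settle the calls above.

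The 10 genes, the 8 gene lists and the marker lists were chosen with earlier results of these data known, and the motifs after the start windows had been read. All probes of the 10 genes are given. Of each list the text names the 2 highest and 2 lowest genes by mean ratio and those at least 2-fold changed on all 3 arrays, and for each of the 10 the 3 nearest genes; some genes are not reported here. Foxo4, Foxo6, Il7, Tslp, Foxj1, Axin2, Prdm1, Il4, Il9, Gata3 and the marker genes lie outside that rule and were named after their values were seen. Alternatives were median centring, processed signals, an offset of 16, the mean of all probes, outlier spots kept, no filter on dim probes, and the authors' deposited values. Sequences are from RefSeq.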

Additional observations from a re-analysis of the deposited data

How the results depend on the processing

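Of the 20 calls of at least 2-fold against naive among 30 ratios (10 genes on 3 arrays), 17 were kept with median centring (Foxo1 in Th9 cells and Foxp1 in Th2 and Th9 cells were lost), 18 with the mean of all probes, and all 20 with processed signals, an offset of 16, outlier spots kept, no filter on dim probes and the authors' series values. Median centring moved 17 of the 30 ratios by more than their error and turned the sign of 1, Satb1 in Th2 cells. Of 10 calls between cultures it kept 5, with 0 of 3 genes left higher in iTreg than in Th2 cells and 2 of 4 left higher in iTreg than in Th9 cells, and 10 of 30 differences changed sign. It also gave 810 lower and 2782 higher genes in Th2 cells. By processed signals and by the authors' series values 1 of the 10 genes, Foxo3, was at least 2-fold higher in Th2 cells, at 1.31 and 1.36. Processed signals also put Bach2 past 2-fold in Th2 cells (-1.01), so that 8 of the 10 genes were lower there. The cause was not tested. No paired analysis was possible because each culture had 1 array. With 1 array each, no replicate could be left out, and a gene-specific dye effect cannot be told apart from a difference against naive. Foxo3 was limited by signal over background.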
